A study of Mus musculus with 4 samples.

Results

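Conventional CD4 T cells of tibial muscle were followed through a cardiotoxin injury by single-cell RNA sequencing, in which a barcode marks the cell of each captured transcript and a unique molecular identifier (UMI) the transcript itself. A cell was counted as a conventional CD4 T cell when mitochondrial genes gave no more than 10% of its UMIs, it held at least 1 UMI of *Cd4* and at least 1 of *Cd3e*, *Cd3d* or *Cd3g*, and it held 0 UMIs of *Cd8a*, *Cd8b1*, *Foxp3*, *Trdc*, *Ncr1* and *Csf1r*. The members were thus chosen by measured UMIs of these genes, and their levels of *Cd4*, the CD3 genes and the excluded genes are no finding. This rule found 499 cells among 62665. There were 66 of 12031 cells in Uninjured muscle, 158 of 11722 at 1 day post injury (dpi), 168 of 15160 at 3 dpi and 107 of 23752 at 7 dpi.

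All mice were *Nse-Bmp4* animals on a C57BL/6 background, 6 to 8 weeks old, in which the neuron specific enolase (*Nse*) promoter drives *Bmp4*, so that the uninjured animals carry the transgene as well. Injured muscles received cardiotoxin (CTX), a snake venom toxin that destroys muscle fibres, and in this strain such an injury leads to heterotopic ossification. Cells were released by collagenase digestion. Each time point was 1 library from a pool of 3 muscles, so a difference between time points cannot be told apart from a difference between libraries, and no test between them was possible. The intervals given below are exact 95% intervals that cover counting error only.

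CD4 T cells read peptides held on MHC class II through the T cell receptor (TCR) and the CD3 signalling chains. A naive cell circulates between blood and lymph nodes under the control of receptors such as *Ccr7* and *S1pr1*, and the transcription factors *Lef1*, *Tcf7* and *Klf2* mark this state. After activation, helper cells take on programmes led by *Tbx21* (Th1, with interferon gamma, *Ifng*), *Gata3* (Th2) or *Bcl6* (follicular helper cells, Tfh), or become Th17 cells, and they instruct other cells through ligands such as CD40 ligand (*Cd40lg*). In injured muscle, T cells arrive together with other leukocytes and are known to act on macrophages and on muscle progenitors.

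The 4 libraries held 112317902, 91146335, 116346301 and 129007669 UMIs in the order Uninjured, 1, 3 and 7 dpi. The conventional CD4 T cells contributed 276304, 782832, 583082 and 346180 of these, with a median of 3294.5, 4063, 2551.5 and 1926 UMIs per cell. A level below is given in CPM, counts per 1000000, the UMIs of a gene divided by all UMIs of the conventional CD4 T cells of a library. The upper limit that a count of 0 allows (3 UMIs) was 10.9, 3.83, 5.15 and 8.67 CPM, so that absence of a low gene was least well resolved in Uninjured and at 7 dpi. Pairs of libraries shared 30 to 95 barcodes over all cells, and no barcode was a conventional CD4 T cell in more than 1 library.

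Most members lay at the edge of the rule. A single *Cd4* UMI was the basis for 52, 90, 122 and 88 of the cells in the order of the libraries, and the highest *Cd4* count in a cell was 5, 9, 6 and 5. Just outside, 227, 356, 692 and 1481 cells had a CD3 gene and none of the excluded genes but no *Cd4* UMI. A further 7, 29, 61 and 57 cells had *Cd4* but no CD3 gene, and 6, 45, 23 and 12 met both requirements but held an excluded gene. The rule therefore leaves out CD4 T cells whose *Cd4* was not captured, and it cannot remove a regulatory or CD8 T cell whose *Foxp3* or *Cd8a* was missed.

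The genes that led these cells over all other cells of the 4 libraries were T cell genes. After *Cd4* itself, the largest CPM ratios were those of *Cd40lg* (95.1), *Izumo1r* (93.2), *Trat1* (84.4), *Cd5* (73.7), *Slamf1* (58.8), *Ctla4* (53.7), *Icos* (50.8) and *Cd6* (50.1). *Cd40lg* had a UMI in 13.6%, 22.8%, 18.5% and 10.3% of the cells and in 0 of 2027 B cells of the 4 libraries, which allows a share of up to 0.148%, and *Icos*, a costimulatory receptor, in 12.1%, 62.0%, 61.9% and 20.6% against at most 0.560% of B cells. B cells here held *Cd79a* and *Cd79b* and had lower median depths of 2520, 3024, 1927 and 1563.5 UMIs. *Trbc2*, a constant segment of the TCR beta chain, was found in 95.5%, 89.9%, 74.4% and 74.8% of the conventional CD4 T cells. These markers fit the label. One leading gene did not, *Iglc1*, an immunoglobulin light chain segment with a ratio of 50.9, of whose UMIs 98.7% lay in 1 cell.

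Some members also held stromal transcripts. The summed level of 9 mesenchymal markers (*Col1a1*, *Col1a2*, *Col3a1*, *Dcn*, *Lum*, *Sparc*, *Fn1*, *Pdgfra* and *Prrx1*) was 10611.5, 2831, 9786 and 23072 CPM in the order of the libraries, with *Dcn* the most abundant of them in Uninjured, 1 and 3 dpi and *Col1a1* at 7 dpi. None of the 9 was at 0 UMIs in any library. In the median cell these genes made up only 0.0894%, 0.0361%, 0.0911% and 0.277% of UMIs, whereas they exceeded 1% in 6, 3, 12 and 21 cells, which held 28.1%, 5.08%, 20.7% and 46.5% of all UMIs of the conventional CD4 T cells. Without these 42 cells the summed level was 922, 1073, 1003 and 2197 CPM. The leukocyte gene *Ptprc* had a UMI in 6, 3, 6 and 9 of the 42 cells, against 56 of 60, 151 of 155, 139 of 156 and 64 of 86 of the remaining 457. They held a median of 18.5, 27, 12.5 and 4 UMIs of the core identity genes of T cells, against 17, 25, 15 and 12 in the remaining cells, at a median depth of 12249.5, 14410.0, 8601 and 5709 against 3242.5, 4027, 2444.5 and 1822.5 UMIs. Whether these 42 members are T cells was not tested, and at 7 dpi nearly as many UMIs came from them as from all other members. Many counts over the gene lists moved with these cells and are then given with and without them, a removal chosen after the data had been seen.

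**Figure D1:**
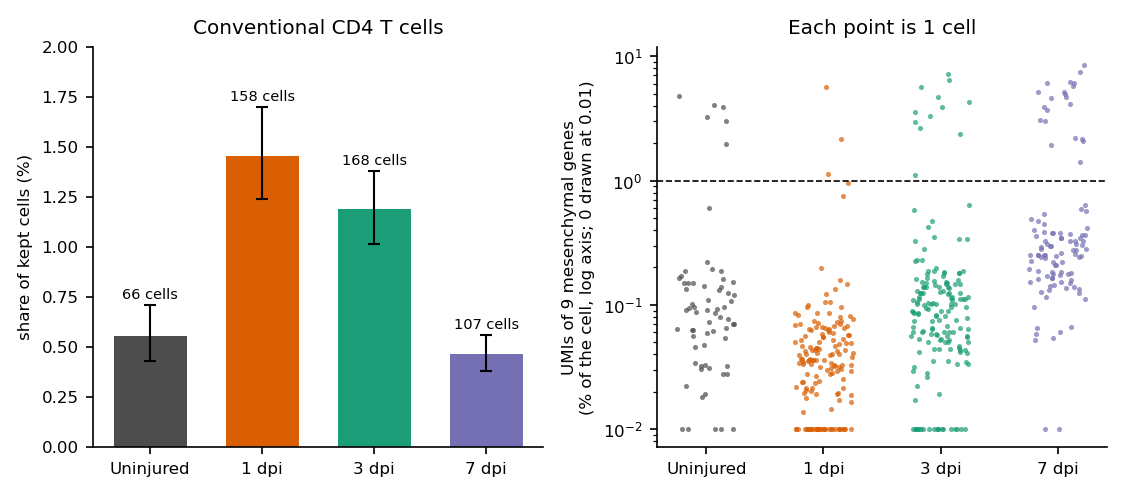
Left, conventional CD4 T cells as a percentage of all kept cells of each library, with exact 95% intervals. Right, the percentage of each cell's UMIs that came from 9 mesenchymal genes (log axis, 1 point per cell), with the dashed line at 1%. On the left, the share of kept cells was highest at 1 and 3 dpi. On the right, 7 dpi had the most cells above the line, 21 of 107.

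Conventional CD4 T cells made up 0.558% (0.432 to 0.709) of kept cells in Uninjured, 1.46% (1.24 to 1.70) at 1 dpi, 1.19% (1.02 to 1.38) at 3 dpi and 0.465% (0.381 to 0.561) at 7 dpi. Of all cells with a CD3 gene they were 12.4% (9.69 to 15.5), 16.1% (13.8 to 18.5), 11.3% (9.71 to 13.0) and 5.07% (4.17 to 6.09). The intervals of 1 and 3 dpi lay above those of Uninjured and 7 dpi for the share of all cells, whereas of the cells with a CD3 gene the interval at 7 dpi lay below those of the other libraries and that at 1 dpi above that at 3 dpi. The low share at 7 dpi depended on which cells were kept. The shares of cells with a CD3 gene without the cells rich in mesenchymal UMIs were 13.8%, 17.5%, 12.3% and 10.4%, without cells holding a UMI of any of 5 genes of other cell types 12%, 21.5%, 12.1% and 13.3%, and with each cell thinned to 1000 UMIs first 3.41%, 9.03%, 6.73% and 4.29%, so that Uninjured was then the lowest. Cells with a CD8 gene chosen in the same way numbered 194, 280, 408 and 269, which gave a ratio of conventional CD4 to CD8 T cells of 0.340, 0.564, 0.412 and 0.398. The rule needs a captured *Cd4* UMI and the median depth was lowest at 7 dpi, and all shares of cells also depend on how many other cells each digest released.

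Of the successive pairs of libraries, Uninjured and 1 dpi had the largest share of genes at least 2-fold apart. Among 6163 genes with at least 20 UMIs in both libraries together, 21.9% were at least 2-fold higher at 1 dpi and 6.0% at least 2-fold lower, with a median log2 ratio of 0.33. The same median was 0.25 in CD8 T cells, 0.25 in B cells and 0.19 in natural killer (NK) cells, so that a positive median was common to the lymphocytes of this pair of libraries. Ribosomal protein genes took 309735, 206857, 200387 and 241322 CPM of the conventional CD4 T cells in the 4 libraries, and their level is a part of the same total. From 1 to 3 dpi, 7.19% of 7231 genes were at least 2-fold higher and 3.91% lower, with a median of 0.00. From 3 to 7 dpi, 7.04% of 5964 genes were higher and 16.8% lower, with a median of -0.25, which was -0.25 in CD8 T cells, -0.21 in B cells and -0.18 in NK cells. Against Uninjured, 20.6% of 5564 genes were higher and 4.69% lower at 3 dpi, and 12.9% of 4068 were higher and 7.67% lower at 7 dpi. Without the 42 cells rich in mesenchymal UMIs, the shares were 27.4% higher and 2.6% lower at 1 dpi against Uninjured, 4.12% and 5.55% at 3 against 1 dpi, 2.66% and 18.5% at 7 against 3 dpi, 25.4% and 3.47% at 3 dpi against Uninjured, and 8.73% and 4.32% at 7 dpi against Uninjured. Counts over the gene lists below are to be read against these shares of all genes.

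The naive and central memory programme was highest in Uninjured muscle. *Ccr7*, the chemokine receptor that guides T cells into lymph nodes, measured 402 CPM (330 to 484) in Uninjured, 263 (228 to 302) at 1 dpi, 123 (96.6 to 156) at 3 dpi and 113 (80.1 to 154) at 7 dpi. *Lef1*, a factor of the Wnt pathway that marks naive T cells, measured 315, 264, 99.5 and 136 CPM, 2.66-fold (1.98 to 3.62) lower at 3 than at 1 dpi. *Dapl1* had the same order down to 3 dpi, with 36, 27, 0 and 10 UMIs, or 130.3, 34.5, 0 and 28.9 CPM, and was at least 6.70-fold lower at 3 dpi than at 1 dpi. *Klf2*, which maintains *S1pr1*, measured 2696, 1389.8, 1163 and 1173 CPM, but was also lower at 1 dpi than in Uninjured in B cells (ratio 0.319) and NK cells (ratio 0.458). *Tcf7* (337, 493, 216 and 127 CPM) and *Il7r*, the receptor for the survival cytokine IL-7 (333, 662, 624 and 168 CPM), did not follow the others and were higher at 1 dpi than in Uninjured.

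Of the 16 genes of this list, 0 were at least 2-fold higher and 3 lower at 1 dpi than in Uninjured, among them *Dapl1* and *Igfbp4*, with a median log2 ratio of -0.15 against 0.33 for all genes. At 3 against 1 dpi, 0 were higher and 7 lower, among them *Dapl1*, *Bach2*, *Lef1*, *Tcf7*, *Ccr7* and *Txk*, with a median of -0.64 against 0.00. At 7 against 3 dpi, 3 of 15 were higher, among them *Bach2* and *Actn1*, and 2 lower (*Il7r* and *Ly6c1*), with a median of 0.01 against -0.25. Without the cells rich in mesenchymal UMIs the counts were 0 and 5 at 1 dpi, 0 and 5 at 3 dpi, and 4 and 1 at 7 dpi. Summed over the list, the level was 7169.6, 5683, 4409 and 4134 CPM, and 8672, 5717, 4605 and 5009 CPM without the cells rich in mesenchymal UMIs. It was highest in Uninjured in CD8 T cells (6478, 5822, 4544 and 4516 CPM) and B cells (7969.7, 5433, 4736 and 5870.2 CPM) as well.

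Genes of antigen experience ran the other way. *Cd44*, the hyaluronan receptor that separates naive from experienced T cells, measured 57.9 CPM (33.1 to 94.0), 247 (213 to 284), 370.4 (323 to 423) and 89.5 (60.8 to 127), 4.26-fold (2.56 to 7.60) higher at 1 dpi than in Uninjured. It had a UMI in 15.2%, 54.4%, 51.8% and 24.3% of the cells and in 29.9% to 60.2% of mesenchymal cells, and without the 42 cells its ratio at 1 dpi was 7.33. *Ccr2*, a receptor for inflammatory chemokines, measured 32.6, 213, 161 and 104 CPM and was 6.55-fold (3.37 to 14.6) higher at 1 dpi. *Maf*, a factor of cytokine-producing helper cells, measured 101, 569.7, 439 and 211 CPM, 5.62-fold (3.84 to 8.56) higher at 1 dpi, and *Itgb1* 264, 683, 497 and 350 CPM. *Cxcr6*, a receptor of tissue T cells, measured 39.8, 97.1, 180.1 and 116 CPM and was highest at 3 dpi, while *S100a4* (626, 1119, 1321 and 1392 CPM) was highest at 7 dpi. In total 8 of 18 genes of the list were at least 2-fold higher at 1 dpi than in Uninjured and 0 lower, with a median log2 ratio of 0.85, or 10 and 0 without the cells rich in mesenchymal UMIs. None of the 18 was past 2-fold between 1 and 3 dpi (1 higher without the cells rich in mesenchymal UMIs), and *Cd44* and *Maf* were the 2 lower at 7 than at 3 dpi. These 2 of 18 are a smaller share than the 16.8% of all genes lower in that pair, or 18.5% without those cells.

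**Figure D2:**
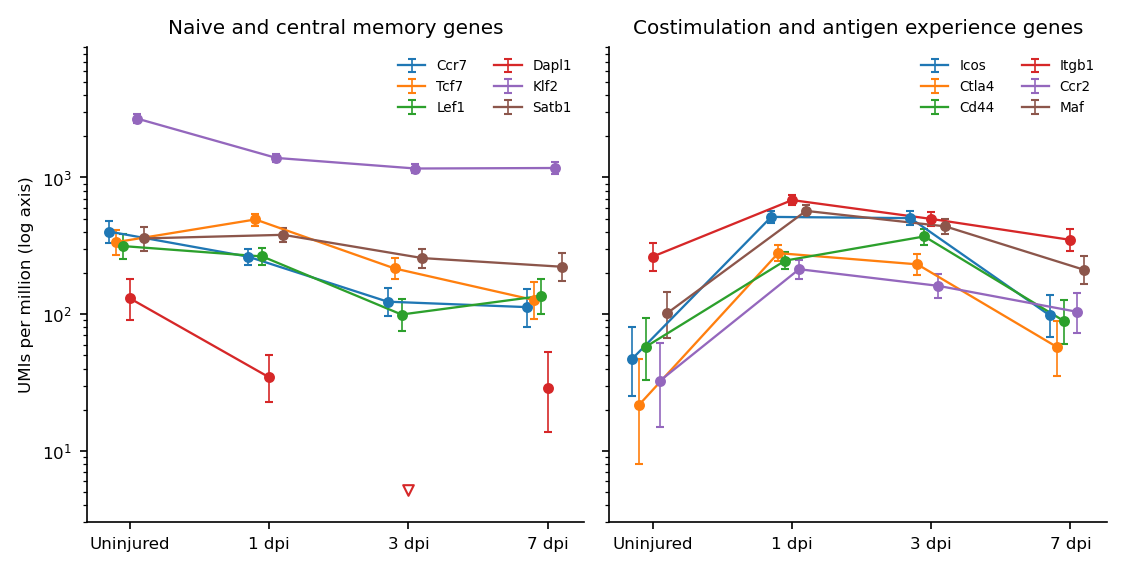
Level of 6 naive and central memory genes (left) and 6 costimulation and antigen experience genes (right) in the conventional CD4 T cells of each library, in CPM on a log axis with exact 95% Poisson intervals. The open triangle marks *Dapl1* at 3 dpi, with 0 UMIs, drawn at the level of 3 UMIs, and *Icos* stood near 500 at 1 and 3 dpi and below 100 in the other libraries.

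Costimulation and recent activation peaked at 1 and 3 dpi. *Icos* measured 47.0 CPM (25.1 to 80.5), 515 (466 to 568), 504 (448 to 565) and 98.2 (68.0 to 137). It was 10.9-fold (6.33 to 20.7) higher at 1 dpi than in Uninjured and 5.13-fold (3.59 to 7.55) lower at 7 than at 3 dpi, with the 1 and 3 dpi levels overlapping in their intervals. *Ctla4*, the inhibitory counterpart of *Cd28*, measured 21.7, 280, 232 and 57.8 CPM, 12.9-fold (5.82 to 35.5) higher at 1 dpi, and *Cd28* itself 329, 964, 772 and 272 CPM, 2.93-fold (2.35 to 3.68) higher. *Pdcd1* (PD-1) had 1, 55, 40 and 3 UMIs. *Tnfrsf4* (OX40), induced by TCR signals, measured 14.5, 92.0, 53.2 and 78 CPM, or 10.1, 96.9, 58.4 and 135 CPM without the cells rich in mesenchymal UMIs, so that the place of 7 dpi in this order depended on these cells. *Nr4a1*, an immediate target of the TCR, measured 355, 636, 1063 and 332 CPM and peaked at 3 dpi, in contrast to B cells, where its ratio of 3 to 1 dpi was 0.592.

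Among 16 recent activation genes tested at 1 dpi against Uninjured, 9 were at least 2-fold higher and 1 lower (*Egr1*), with a median log2 ratio of 1.17. At 3 against 1 dpi 0 of 17 were higher and 2 lower, and at 7 against 3 dpi 0 of 15 were higher and 6 lower (*Pdcd1*, *Ctla4*, *Nr4a3*, *Nr4a1*, *Irf4* and *Nfkbid*). The counts were 9 and 0, 1 and 2, and 4 and 4 without the cells rich in mesenchymal UMIs. Summed over the list, the level was 2410, 3141, 3427 and 1982 CPM. It was also higher at 1 and 3 dpi than in the other libraries in CD8 T cells (1939, 2571, 2564 and 1601 CPM). The same held in NK cells (2359, 3106, 2857 and 1682 CPM), but not in B cells (4165, 3995, 2933 and 2880 CPM). The summed level of genes that relay TCR signals was also higher at 1 and 3 dpi than in the other libraries, as it was in CD8 T cells (2869.7, 5315, 4313 and 2629.6 CPM). *Zap70*, the kinase recruited by CD3, measured 50.7, 124, 139 and 46.2 CPM, and *Ptpn22*, a phosphatase that restrains it, 65.1, 316, 300.1 and 80.9 CPM. Of 26 TCR signalling genes, 13 were at least 2-fold higher and 0 lower at 1 dpi against Uninjured, 1 higher and 0 lower at 3 against 1 dpi, and 0 higher and 11 lower at 7 against 3 dpi. Without the cells rich in mesenchymal UMIs these counts were 7 and 0, 1 and 0, and 0 and 8, and 7 of 26 is no larger a share than the 27.4% of all genes that were higher at 1 dpi without these cells. Their summed level of 3978, 7288, 6093 and 3143 CPM became 4905, 7536, 7301 and 5150 CPM without the cells rich in mesenchymal UMIs, so that 7 dpi was below Uninjured with these cells and above it without them.

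**Figure D3:**
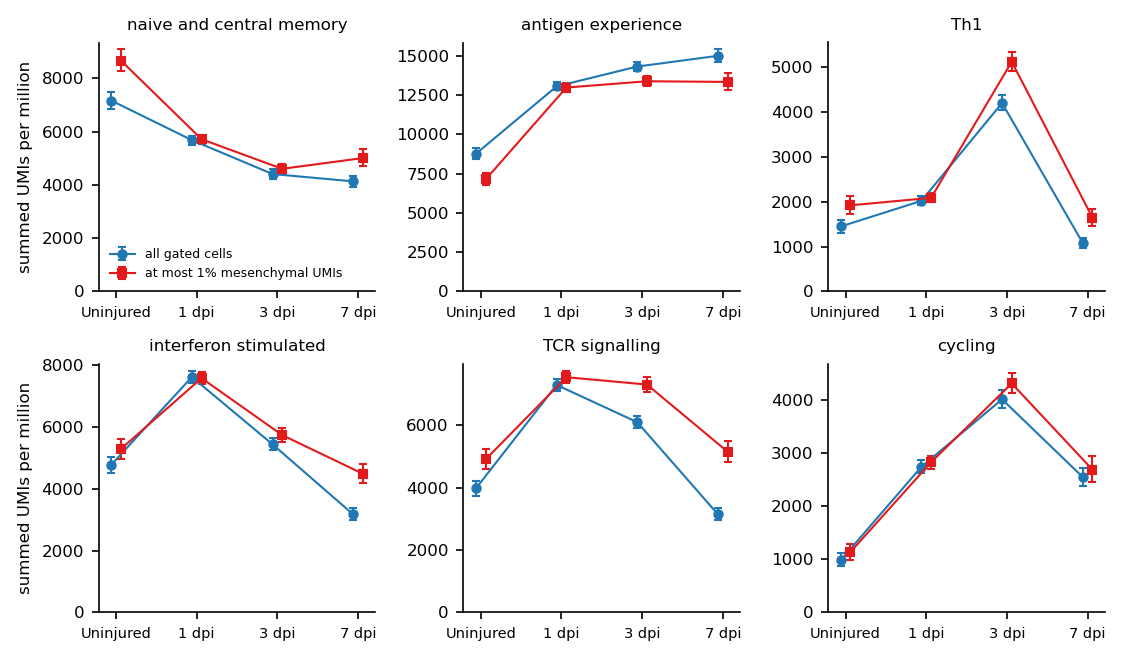
Summed level of 6 gene lists in each library, in CPM with exact 95% intervals, for all conventional CD4 T cells and without the 42 cells over 1% mesenchymal UMIs. The naive and central memory sum was highest in Uninjured, the TCR signalling and interferon stimulated sums at 1 dpi, and the Th1 and cycling sums at 3 dpi.

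Th1 genes were highest at 3 dpi. *Ifng* measured 119 CPM (82.2 to 168) in Uninjured, 226 (194 to 262) at 1 dpi, 614 (552 to 681) at 3 dpi and 133 (97.3 to 177) at 7 dpi. Its level was 2.72-fold (2.26 to 3.27) higher at 3 than at 1 dpi and 4.62-fold (3.39 to 6.43) lower at 7 than at 3 dpi, and the NK cells of the same libraries had ratios of 1.27 and 0.534. In CD8 T cells *Ifng* was also highest at 3 dpi, with 142, 247, 400.1 and 151 CPM, as was the sum of the Th1 list, with 3589, 6347, 8595 and 5096 CPM. The gene had a UMI in 12.1%, 28.5%, 46.4% and 19.6% of the conventional CD4 T cells, in 7.58%, 18.4%, 29.9% and 13.3% after each cell was thinned to 1000 UMIs, and in 0%, 1.55%, 1.96% and 3.06% of B cells, where the count of 0 in Uninjured allows up to 1.20%. *Tbx21* (T-bet), which drives *Ifng*, had 1, 34, 55 and 4 UMIs, or 3.62, 43.4, 94.3 and 11.6 CPM, and was 2.17-fold (1.39 to 3.44) higher at 3 than at 1 dpi. *Ly6c2*, a surface protein of Th1 and effector cells, measured 21.7, 97.1, 424 and 116 CPM, and *Nkg7*, a granule protein, 156, 244, 451 and 107 CPM. *Ccl5*, a chemokine of effector T cells, measured 644, 376, 1317 and 274 CPM, but in Uninjured its 178 UMIs lay in 10.6% of cells against 48.2% of cells at 3 dpi. *Tnf* measured 79.6, 93.3, 175 and 34.7 CPM, and was 5.05-fold (2.77 to 10.1) lower at 7 than at 3 dpi.

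Genes of the interleukin 18 receptor were high at 1 dpi already. *Il18r1*, a chain of the receptor for interleukin 18, measured 72.4, 287, 252 and 57.8 CPM, and *Il18rap*, its partner, had 0, 73, 79 and 8 UMIs and was at least 8.59-fold higher at 1 dpi than in Uninjured. Of the Th1 list, 6 of 13 genes were at least 2-fold higher at 1 dpi and 0 lower (*Tbx21*, *Il18rap*, *Ly6c2*, *Il18r1*, *Hopx* and *Cxcr3*). At 3 against 1 dpi 6 of 15 were higher and 0 lower, among them *Ly6c2*, *Ccl5*, *Ifng*, *Tbx21* and *Ccl4*, with a median log2 ratio of 0.89 against 0.00 for all genes. At 7 against 3 dpi 0 of 14 were higher and 10 lower, with a median of -2.10 against -0.25. These counts were 6 and 1 at 1 dpi, 8 and 0 at 3 dpi and 0 and 10 at 7 dpi without the cells rich in mesenchymal UMIs. Granule genes of killer cells shared the peak, with *Gzmb* at 1, 12, 46 and 3 UMIs and 4 of 7 cytotoxic genes at least 2-fold higher at 3 than at 1 dpi, or 5 without the cells rich in mesenchymal UMIs.

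*Ifng* was found more often in cells with *Tbx21* than in cells without it. Of 63 cells with a *Tbx21* UMI, 42 (66.7%, 53.7 to 78.05) also held *Ifng*, against 110 of 436 cells (25.2%) without. The same direction was seen at 1 dpi, with 12 of 21 against 33 of 137 cells, and at 3 dpi, with 29 of 38 against 49 of 130. The other libraries had few cells with *Tbx21*, with 0 of 1 against 8 of 65 in Uninjured and 1 of 3 against 20 of 104 at 7 dpi. *Ifng* carriers also held *Ccl5* more often than the other cells (60.5% against 15.0%) and *Tnf* (40.1% against 15.3%). Such shares grow with the depth of a cell and are given as a description.

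Th2 genes were few. *Gata3*, the lead factor of Th2 cells and also needed by CD4 T cells in general, measured 79.6, 202, 135 and 83.8 CPM and was 2.53-fold (1.62 to 4.16) higher at 1 dpi than in Uninjured. The cytokine genes *Il5* and *Il13* had 0 UMIs in all 4 libraries, and *Il4* had 2 UMIs, both at 1 dpi. A share of *Gata3* carriers, 60 of 165 (36.4%), also held *Ifng*, against 92 of 334 (27.5%) without *Gata3*. *Areg* (amphiregulin, a growth factor for tissue repair) had 48, 76, 6 and 11 UMIs, or 174, 97.1, 10.3 and 31.8 CPM, and was 9.43-fold (4.14 to 26.5) lower at 3 than at 1 dpi. In Uninjured its 48 UMIs came from 3.03% of cells. Of the Th2 list, 3 of 6 genes were at least 2-fold higher at 1 dpi than in Uninjured (*Ccr4*, *Gata3* and *Il1rl1*), and 0 of 6 were higher and 2 lower (*Areg* and *Il1rl1*) at 3 against 1 dpi. The counts higher and lower were 3 and 1, and 1 and 2, without the cells rich in mesenchymal UMIs.

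*Il17a*, the signature cytokine of Th17 cells, had 0, 10, 18 and 12 UMIs, all in 12 cells. *Rora*, a factor found in many tissue T cells, measured 94.1, 455, 528 and 191 CPM, and 5 of 7 genes of the Th17 list were at least 2-fold higher at 1 dpi (*Ahr*, *Rora*, *Tmem176a*, *Ccr6* and *Batf*), or 6 without the cells rich in mesenchymal UMIs. *Rora* had a UMI in 26.7% to 68.9% of mesenchymal cells, and its ratio at 1 dpi was 4.83 with and 5.42 without the cells rich in mesenchymal UMIs.

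Tfh genes were highest at 1 dpi. *Tox2*, which supports the Tfh fate, had 0, 31, 1 and 1 UMIs, and *Cxcr5*, the receptor that leads to B cell follicles, had 1, 24, 2 and 1. B cells, which use *Cxcr5* themselves, held it in 35.3%, 37.4%, 19.0% and 33.2%. *Tox2* was at least 3.65-fold higher at 1 dpi than in Uninjured and 23.1-fold (3.85 to 941) lower at 3 than at 1 dpi. *Slamf6*, an adhesion receptor of Tfh and memory cells, measured 97.7, 193, 68.6 and 37.6 CPM. Of 9 genes of the list, 5 were at least 2-fold higher at 1 dpi than in Uninjured (*Cxcr5*, *Izumo1r*, *Tox2*, *Sh2d1a* and *Tbc1d4*), or 4 without the cells rich in mesenchymal UMIs, and 5 were lower at 3 than at 1 dpi (*Tox2*, *Cxcr5*, *Tox*, *Slamf6* and *Izumo1r*), with a median log2 ratio of -1.38 against 0.00. *Il21*, the main Tfh cytokine, had 2 UMIs in all, both at 3 dpi. Summed over the list, the level was 409, 856, 412 and 217 CPM. It was also highest at 1 dpi in CD8 T cells (257, 348, 287 and 209 CPM) and B cells (427, 557, 545 and 396 CPM). In NK cells it was highest at 3 dpi (248, 251, 286 and 191 CPM).

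Genes associated with regulatory T cells were also higher at 1 dpi although cells with *Foxp3* had been left out. *Ikzf2* (Helios) had 3, 164, 50 and 35 UMIs, or 10.9, 209, 85.8 and 101 CPM, and was 19.3-fold (6.49 to 94.5) higher at 1 dpi, with 22.8% of cells carrying a UMI at 1 dpi. *Izumo1r* (folate receptor 4) measured 14.5, 116, 44.6 and 17.3 CPM. In total 8 of 10 genes of the list were at least 2-fold higher at 1 dpi than in Uninjured and 0 lower, with a median log2 ratio of 2.44. At 7 against 3 dpi 0 of 11 were higher and 4 lower, or 5 and 2 without the cells rich in mesenchymal UMIs. Of all genes, 7.04% were higher and 16.8% lower in this pair, or 2.66% and 18.5% without those cells. The 2 of 11 lower was thus near the share of all genes, and the 5 of 11 higher was above it. Summed over the list, the level was 376, 1470, 1177 and 895 CPM. It was also highest at 1 dpi in CD8 T cells, with 311, 766, 635 and 456 CPM. In NK cells it was 985, 1374, 1086 and 676 CPM, and in B cells 237, 214, 239 and 270 CPM. The higher level at 1 dpi was thus not particular to conventional CD4 T cells. Whether cells whose *Foxp3* was not captured contribute was not tested.

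**Figure D4:**
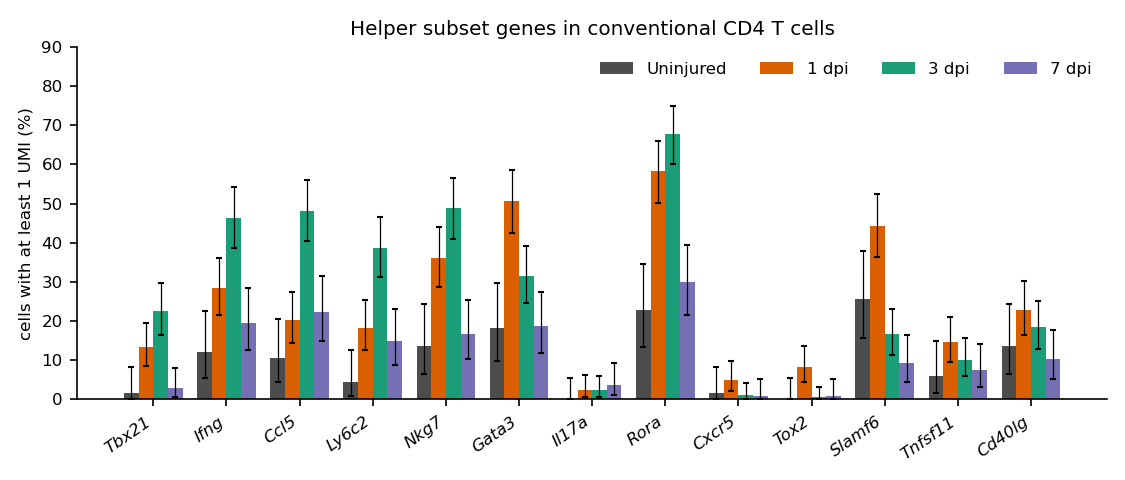
Percentage of conventional CD4 T cells with at least 1 UMI of 13 helper T cell genes in each library, with exact 95% Clopper-Pearson intervals (n = 66, 158, 168 and 107 cells). *Ifng*, *Tbx21*, *Ccl5*, *Ly6c2* and *Nkg7* were highest at 3 dpi, and *Cxcr5*, *Tox2* and *Slamf6* at 1 dpi.

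The ligands by which helper T cells act on other cells differed in their levels over the libraries. *Cd40lg*, which activates B cells, macrophages and dendritic cells, measured 36.2 CPM (17.4 to 66.6), 62.6 (46.3 to 82.8), 72.0 (51.9 to 97.4) and 57.8 (35.3 to 89.2), and *Tnfsf11* (RANKL, the osteoclast differentiation factor) 32.6, 53.7, 44.6 and 34.7 CPM. For neither did the ratio of any successive pair of libraries have an interval that left out 1. *Tnfsf8* (CD30 ligand) measured 57.9, 98.4, 137 and 28.9 CPM and was 4.75-fold (2.45 to 10.3) lower at 7 than at 3 dpi. Of 25 ligand genes at 3 against 1 dpi, 8 were at least 2-fold higher and 1 lower, and of 23 at 7 against 3 dpi, 4 were higher and 11 lower, or 1 and 11 without the cells rich in mesenchymal UMIs.

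Receptors for traffic also differed between Uninjured and 1 dpi. Of 14 chemokine and egress receptors, 11 were at least 2-fold higher than in Uninjured and 1 lower, with a median log2 ratio of 1.65, or 9 and 2 without the cells rich in mesenchymal UMIs. *Cxcr4*, the receptor for the stromal chemokine CXCL12, measured 192, 616, 513 and 147 CPM, but was also higher at 1 dpi in NK cells (ratio 3.27). Of cytokine receptors, 8 of 20 were higher and 1 lower at 1 dpi against Uninjured, and 0 of 19 higher and 11 lower at 7 against 3 dpi, among them the IL-7, IL-18, IL-10 and interferon receptor genes *Il7r*, *Il18r1*, *Il10ra* and *Ifnar1*. Without the cells rich in mesenchymal UMIs these counts were 9 and 1, and 1 and 8. Of all genes, 21.9% were higher and 6.0% lower at 1 dpi, and 7.04% higher and 16.8% lower at 7 against 3 dpi. Without those cells these shares were 27.4% and 2.6%, and 2.66% and 18.5%. The chemokine and egress sum was 1509, 2956, 2290 and 1283 CPM. In CD8 T cells it was 1372, 2589, 1835 and 1109 CPM, and in NK cells 1759, 2873, 2178 and 1050 CPM. The cytokine receptor sum was 1578, 3119, 3025 and 1366 CPM, or 3193 at 1 dpi and 3373 at 3 dpi without those cells. Its values were 1416, 2620, 2318 and 1142 CPM in CD8 T cells. In NK cells they were 2273, 3389, 2659 and 1383 CPM. Both sums were thus also highest at 1 dpi in CD8 T and NK cells.

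Interferon stimulated genes were higher at 1 dpi than in Uninjured, with 19 of 38 at least 2-fold higher and 0 lower and a median log2 ratio of 1.00 against 0.33 for all genes. The counts were 17 and 2 (*Isg15* and *Ifit1* were lower), with a median of 0.88 against 0.47, without the cells rich in mesenchymal UMIs. Their products restrict viruses or relay interferon signals, and many are switched on by the factor ISGF3 and its relatives, which bind a repeat of GAAA. The promoters of 4 of the genes that were higher at 1 dpi are shown as 60-base stretches of RefSeq sequence on GRCm38.p6, read 5′ to 3′ on the strand of the gene, with matches on either strand to GAAA, any 2 bases and GAAA in capitals, which read TTTC, 2 bases and TTTC where the match is on the other strand. Rsad2 lies at chr12:26456538-26456597 (minus strand) and its match begins 120 bases before the start of the gene, Stat2 at chr10:128270251-128270310 (plus strand, 222 bases), Bst2 at chr8:71537562-71537621 (minus strand, 124 bases for the nearer of 2 overlapping matches) and Gbp7 at chr3:142530258-142530317 (plus strand, 53 bases).
Rsad2: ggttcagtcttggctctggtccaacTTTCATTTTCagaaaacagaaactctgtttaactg
Stat2: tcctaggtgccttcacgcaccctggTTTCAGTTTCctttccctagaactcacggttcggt
Bst2: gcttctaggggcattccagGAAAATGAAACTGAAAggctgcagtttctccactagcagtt
Gbp7: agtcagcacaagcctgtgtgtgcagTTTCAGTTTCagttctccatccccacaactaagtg
Of all 27025 promoters of this table (250 bases before to 50 after the start), 3.49% held this motif on either strand, as did 16 of the 28 interferon stimulated genes matched (57.1%). Among those at least 2-fold higher at 1 dpi it was 8 of 13, and in the naive and central memory, antigen experience and Th1 lists 0 of 12, 0 of 15 and 1 of 14. The motif TTCNNNGAA, bound by STAT dimers and searched on both strands, was held by 8.47% of all promoters and 21.4% of the interferon stimulated list. It was also held by 2 of 12 naive and central memory, 0 of 15 antigen experience and 3 of 14 Th1 promoters, and was thus not particular to the interferon list. These matches are a description of the letters, and the list was written from genes known to respond to interferon.

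*Rsad2* (viperin, an antiviral enzyme) measured 10.9 CPM (2.24 to 31.7), 76.6 (58.5 to 98.7), 63.5 (44.7 to 87.5) and 26 (11.9 to 49.4), 7.06-fold (2.30 to 35.2) higher at 1 dpi than in Uninjured. *Stat2*, a subunit of ISGF3, had 3, 51, 24 and 2 UMIs, 6.00-fold (1.94 to 30.1) higher at 1 dpi. *Bst2* (tetherin) measured 57.9, 305, 216 and 156 CPM, 5.27-fold (3.18 to 9.37) higher, and *Gbp7*, a guanylate binding protein, 36.2, 124, 111 and 66.4 CPM, 3.42-fold (1.78 to 7.36) higher. The 4 genes were thus highest at 1 dpi, although the ratio of 3 to 1 dpi for *Gbp7* became 1.02 without the cells rich in mesenchymal UMIs. At 7 dpi the interval of *Bst2* (117 to 204) lay above that of Uninjured (33.1 to 94.0), and those of the other genes overlapped with it. Other members went against this order, since *Isg15* (651, 331, 480 and 220 CPM) and *Ifit1* (510, 303, 286 and 194 CPM) were highest in Uninjured. *Ifi27l2a* was the most abundant gene of the list at 861, 1898, 717 and 722 CPM. At 3 against 1 dpi 0 of 39 were higher and 6 lower, and at 7 against 3 dpi 0 of 36 were higher and 16 lower, or 0 and 4, and 1 and 7, without the cells rich in mesenchymal UMIs. Of all genes, 3.91% and 16.8% were lower in these 2 pairs, or 5.55% and 18.5% without those cells. The 7 of 36 lower at 7 dpi was thus near the share of all genes. In B cells the ratio at 1 dpi was 4.93 for *Rsad2*, 1.05 for *Stat2*, 1.49 for *Bst2* and 1.68 for *Gbp7*. Summed over the list, the level was 4777, 7622, 5443 and 3175 CPM, and it was also highest at 1 dpi in CD8 T cells (3477, 5151, 4279.99 and 2489 CPM), NK cells (3206, 3822, 3059.6 and 2040.1 CPM) and mesenchymal cells (4212, 8737, 3679 and 1689 CPM), but not in B cells (2829, 2443, 2411 and 1962 CPM).

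Cycling genes were highest at 3 dpi. *Mki67*, a marker of dividing cells, had 2, 48, 130 and 56 UMIs, or 7.24, 61.3, 223 and 162 CPM, and *Top2a*, the topoisomerase of mitosis, had 2, 56, 130 and 35. A UMI of either gene was found in 6.06%, 14.6%, 17.3% and 16.8% of the conventional CD4 T cells, in 3.03%, 5.70%, 10.98% and 9.52% after thinning to 1000 UMIs, and in 7.63%, 9.47%, 15.7% and 11.7% of B cells. In CD8 T cells it was 9.79%, 16.4%, 21.6% and 16.4%. The share was lowest in Uninjured and highest at 3 dpi in all 3 cell types. The cycling sum was likewise highest at 3 dpi in conventional CD4 T cells (984, 2740.05, 4009.7 and 2548 CPM), CD8 T cells (2430.3, 2101, 4130.1 and 2491 CPM), NK, B and mesenchymal cells. Of the cycling list, 12 of 13 genes were at least 2-fold higher and 0 lower at 1 dpi, 10 of 20 higher and 0 lower at 3 against 1 dpi, and 0 of 20 higher and 11 lower at 7 against 3 dpi, or 11 of 13, 11 of 19 and 8 of 19 in these directions without the cells rich in mesenchymal UMIs.

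The ratios named next are among the largest for genes with at least 20 UMIs and found in at least 10% of the cells in the higher library, and with at least 3 UMIs in the lower. Genes at or near 0 in a library, such as *Col2a1* before 7 dpi, are thus not ranked. At 1 dpi against Uninjured, *P2ry10*, a receptor for lysophospholipids in lymphocytes, had 3 against 173 UMIs, a ratio of 20.4 (6.85 to 99.7) that was 7.55 in B cells and 5.62 in NK cells. *Rnf125*, a ubiquitin ligase, had 4 against 115 UMIs, a ratio of 10.1 (3.86 to 37.9), and 7.31 in B cells. Among the genes higher in Uninjured were *Rrad* (181 against 39.6 CPM), *Hspb11* (72.4 against 16.6), *Taf10* (228 against 79.2) and *Cdc26* (94.1 against 34.5). *Taf10* was lower at 1 dpi in all 3 lymphocyte types, with a ratio of 0.424 in B cells and 0.370 in NK cells.

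At 3 against 1 dpi these were *Mid1* (9.06, 3.16 to 35.6), *Kif23* (7.38, 3.06 to 21.6), *Serpinb9* (6.27, 3.01 to 14.6), *Gzmb* (5.15, 2.68 to 10.7), *Ube2c* (4.73, 3.00 to 7.69) and *Exoc7* (4.60, 1.92 to 12.7). *Kif23* and *Ube2c* act in cell division, *Gzmb* is a granzyme and *Serpinb9* its inhibitor. Besides *Areg*, the genes lower at 3 dpi were *Fam118a* (5.96-fold), *B630019A10Rik* (5.46-fold), *Dtx1* (5.46-fold), *2310001H17Rik* (4.84-fold) and *Dennd2d* (4.10-fold). *Dtx1* (Deltex1, a ubiquitin ligase of the Notch pathway) had 7, 22, 3 and 5 UMIs in the 4 libraries.

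At 7 against 3 dpi *Fabp5*, a fatty acid binding protein, led the genes that met these limits with a ratio of 5.43 (3.78 to 7.95), which was 1.78 without the cells rich in mesenchymal UMIs. The others were *2310011J03Rik* (3.37), *Med29* (3.22), *Borcs8* (2.98), *Pet100* (2.95) and *Rgs16* (2.95), and *Rgs16* was below 1 (0.666) without those cells, while *2310011J03Rik* was at 6.24. Lower at 7 dpi were *P2ry10* (9.50-fold), *Gzmb* (9.10-fold), *Rab27a* (8.71-fold), *Tbx21* (8.16-fold), *Pdcd1* (7.92-fold) and *Cdkn2aip* (6.73-fold), and without those cells *Gzmb*, *Tbx21* and *Pdcd1* were 5.47-, 5.41- and 5.07-fold lower. *Rab27a*, which docks lytic granules, measured 18.1, 93.3, 75.5 and 8.67 CPM and was also lower at 7 dpi in B cells (ratio 0.118) and NK cells (ratio 0.245).

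Against Uninjured muscle the genes furthest up by these limits at 3 dpi, beside *P2ry10*, *Icos* and *Ctla4*, were *Ly6c2* (19.5), *Lmnb1* (13.0) and *Cish* (9.95), a feedback inhibitor of cytokine receptors. Among those furthest down were *Ext1* (4.22-fold), *Hspb11* (3.84-fold), *Rps27* (3.70-fold), *Frat2* (3.69-fold) and *Pet100* (3.69-fold). At 7 dpi the genes furthest up were *Fabp5* (34.3), *Cops5* (6.65), *Ctla2a* (6.54), *Hilpda* (6.19), *Stmn1* (6.12) and *Cdkn1a* (5.79), and the furthest down *Synrg* (6.26-fold), *Hspa1a* (4.64-fold), *Dnajb1* (4.52-fold), *Dapl1* (4.51-fold), *Rbm33* (3.92-fold) and *Rnf167* (3.92-fold). The ratio was 8.04 for *Fabp5*, 12.9 for *Hilpda* and 11.1 for *Cdkn1a*, and *Dapl1* and *Rnf167* were 2.99- and 2.45-fold lower, without the cells rich in mesenchymal UMIs. *Hspa1a* and *Dnajb1* are heat shock genes that tissue digestion can induce. *Hspa1a* measured 1179.9, 1225, 1068 and 254 CPM, whereas *Fos*, another such gene, measured 4495, 2417, 2334 and 2317 CPM. Their part in the other results was not tested.

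Transcripts of other cell types were present at levels that moved with the libraries. The neutrophil gene *S100a8* had a UMI in 1.52%, 31%, 10.7% and 3.74% of conventional CD4 T cells and in 1.61%, 33.9%, 10.1% and 0.510% of B cells, and the summed level of 9 neutrophil markers was 10.9, 266, 406 and 358 CPM, with *S100a8* the most abundant in Uninjured, *S100a9* in the others and *Ly6g* at 0 UMIs in every library. Myeloid markers summed to 10.9, 93.3, 112 and 341 CPM, with *Ms4a6c* the most abundant at 1 dpi and *Lyz2* in the others. Of 9 B cell markers, *Ebf1* was the most abundant in Uninjured and *Cd74* in the others, and the sum was 536, 756, 767 and 592 CPM against 12993 CPM in the B cells of Uninjured. Dendritic cell markers summed to 25.3, 377, 279.5 and 196 CPM, 14.9-fold (7.13 to 37.3) higher at 1 dpi than in Uninjured, and to 25.2, 393, 348 and 59.4 CPM without the cells rich in mesenchymal UMIs. Most of these UMIs were of *H2-Aa* (2, 160, 60 and 31) and *H2-Ab1* (3, 130, 69 and 34), genes that B cells also use, and *Itgax* was at 0 in the first 3 libraries. Chondrocyte markers summed to 7.24, 0, 15.4 and 2120 CPM, and *Col2a1* had 0, 0, 0 and 277 UMIs at a level of 800.2 CPM at 7 dpi, where it also had a UMI in 34.2% of B cells. Without the cells rich in mesenchymal UMIs the 7 dpi sums were 37.8 CPM for neutrophil, 48.6 for myeloid and 329 for chondrocyte markers. NK markers summed to 29.0, 20.4, 25.7 and 60.7 CPM, with *Eomes* the most abundant at 1 dpi and *Gzma* in the others. The 7 dpi sum was 97.2 CPM without the cells rich in mesenchymal UMIs. The NK receptor genes *Klrb1c*, *Klra8*, *Klre1* and *Klra4* had 3 UMIs or fewer each. The part of these transcripts in the results was not tested.

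To describe how the cells differed among themselves, they were split by a UMI of *Ccr7* or *Lef1*. Carriers were 51, 83, 43 and 41 cells, or 77.3% (65.3 to 86.7), 52.5% (44.4 to 60.5), 25.6% (19.2 to 32.9) and 38.3% (29.1 to 48.2). Thinned to 1000 UMIs the shares were 53.0%, 29.7%, 13.4% and 26.7%, in the same order of the libraries. The same shares were 84.0%, 67.1%, 36.3% and 41.6% in CD8 T cells and 0.697% to 3.38% in mesenchymal cells, whose median depth was higher (9377, 8397, 7042 and 5093 UMIs). In B cells, whose median depth was lower, they were 77.5%, 78.4%, 53.2% and 64.8%. A UMI of *Ccr7* or *Lef1* was thus not particular to T cells. Pooled over the libraries and without the cells rich in mesenchymal UMIs, the 208 carriers had higher levels than the 249 other cells of *Dapl1* (12.5-fold), *Actn1* (5.55-fold), *Satb1* (3.72-fold) and *Bach2* (3.19-fold). They had lower levels of *Cxcr6* (3.69-fold), *Ccr2* (3.40-fold), *Nkg7* (2.57-fold), *Ccl5* (2.51-fold), *Ifng* (2.35-fold), *S100a4* (2.27-fold), *Mki67* (2.25-fold) and *Maf* (2.25-fold). Other naive and central memory genes differed little, with *Klf2* 1.18-fold and *S1pr1* 1.22-fold higher and *Il7r* 1.16-fold lower in carriers. Activation and Tfh genes went both ways. *Cxcr5* (7.81-fold), *Tnfrsf9* (3.21-fold) and *Myc* (2.02-fold) were higher in carriers, and *Ctla4* (1.72-fold) and *Nr4a1* (1.64-fold) lower. The split was made on the data and the libraries contributed unequally to both sides, so these ratios are a description.

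The comparison with CD8 T cells of the same muscles used the libraries as blocks and asked for a difference shared by the 4 of them (edgeR's quasi-likelihood test with Benjamini-Hochberg adjustment, 1151 CD8 T cells). Of 11558 genes, 177 were higher (1.53%) and 227 lower (1.96%) in conventional CD4 T cells at an adjusted p under 0.05, and 1596 had an unadjusted p under 0.05.

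Higher in conventional CD4 T cells were *Cd40lg* and other genes known from helper cells, but also genes of other lists that are counted below. Of 36 ligand genes 6 were higher (*Cd40lg*, *Tnfsf11*, *Areg*, *Il17a*, *Tnfsf8* and *Tnf*) and 4 lower (*Ccl5*, *Ccl4*, *Ccl3* and *Mif*), so the ligands as a list had no common direction. *Cd40lg* measured 36.2, 62.6, 72.0 and 57.8 CPM against 1.69, 1.89, 1.14 and 5.97 CPM in CD8 T cells, a log2 fold change of 4.48 ± 0.36 (SE) with an edgeR adjusted p of 3.32e-06 and the same direction in 4 of 4 libraries. *Tnfrsf4* measured 14.5, 92.0, 53.2 and 78 against 0.847, 3.15, 2.85 and 2.98 CPM (4.43 ± 0.29, edgeR adjusted p = 6.62e-07), and *Tnfsf11* 32.6, 53.7, 44.6 and 34.7 against 0.847, 4.42, 1.71 and 2.98 CPM (3.92 ± 0.35, edgeR adjusted p = 1.07e-05). The groups did not overlap for any of these genes, and the 3 calls held under all 14 alternatives tried. *Areg* (3.63 ± 0.27), *Maf* (2.30 ± 0.27), *Icos* (1.94 ± 0.18), *Ctla4* (1.90 ± 0.23), *Cd5*, which dampens TCR signals (1.58 ± 0.16), *Rora* (1.55 ± 0.18), *Gata3* (1.37 ± 0.17) and *Cd28* (1.09 ± 0.11) were higher as well, each in 4 of 4 libraries. The chemokine receptor *Ccr4* (3.59 ± 0.59) and *Il17a* (3.24 ± 0.64, 40 against 10 UMIs) also passed, but without the 3 dpi library their edgeR adjusted p became 0.0653 and 0.103, and that of *Ccr4* was 0.119 without the 1 dpi library.

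Lower in conventional CD4 T cells were the genes of killing. *Gzma* (granzyme A) measured 18.1, 2.55, 12 and 34.7 CPM against 237, 172, 158 and 499 CPM, a log2 fold change of -4.23 ± 0.24 with an edgeR adjusted p of 1.43e-07. *Eomes*, a T-box factor of CD8 T cells, measured 3.62, 11.5, 1.72 and 2.89 against 13.5, 85.2, 97.5 and 43.8 CPM (-3.63 ± 0.36). *Ccl5* measured 644, 376, 1317 and 274 against 1984, 2887, 4780 and 3246 CPM (-2.55 ± 0.22), so that at every time point the CD8 T cells had more. *Gzmm* (-3.60 ± 0.43), *Prf1* (perforin, -2.98 ± 0.35), *Gzmk* (-2.96 ± 0.35) and *Ly6c2* (-2.20 ± 0.29) were lower too, and 8 of 11 cytotoxic genes passed the test in this direction and 0 in the other. *Dapl1* (-2.05 ± 0.28) was lower as well.

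Other genes did not pass the test, which does not show equal levels. *Ifng* measured 119, 226, 614 and 133 CPM against 142, 247, 400.1 and 151 CPM in CD8 T cells, and its log2 fold change of -0.01 ± 0.16 did not pass (edgeR adjusted p = 0.996). *Tbx21* (-0.14 ± 0.25), *Ccr7* (-0.00 ± 0.17), *Lef1* (-0.04 ± 0.13) and *Cd44* (0.40 ± 0.21) did not pass the test either. By list, 8 of 14 core identity genes were higher and 0 lower, 1 of 16 naive and central memory genes higher and 4 lower, 6 of 18 antigen experience genes higher and 0 lower, 2 of 17 Th1 genes higher (*Il18r1* and *Tnf*) and 7 lower, and 4 of 7 Th2, 4 of 11 Th17 and 3 of 10 Tfh genes higher and 0 lower. Several of these counts rested on single libraries. With 1 library left out, the antigen experience genes higher were as few as 3 (without 3 dpi, where *Cxcr6*, *Id2* and *Itgb7* had an edgeR adjusted p of 0.20, 0.122 and 0.099), the core identity genes 5 (without Uninjured or 3 dpi), the Th17 genes 2 (without 1 or 3 dpi) and the naive and central memory genes lower 1 (without 3 dpi). The cytotoxic count stayed at 8 without each library in turn. Of 25 TCR signalling genes 6 were higher, or 2 without the 3 dpi library, and of 20 cycling genes 0 passed in either direction, with a median log2 fold change of -0.28. Of 26 immediate early and heat shock genes, a list that holds *Fos* and *Hspa1a*, 9 were higher and 1 lower. Of 15 genes associated with regulatory T cells 5 were higher (*Tnfrsf4*, *Izumo1r*, *Ctla4*, *Tnfrsf18* and *Capg*) and 1 lower (*Itgae*). Of 39 interferon stimulated genes 5 were higher (*Ifit1*, *Rsad2*, *Isg15*, *Slfn2* and *Ifi27l2a*), and without the 3 dpi library *Rsad2*, *Isg15* and *Tnf* had an edgeR adjusted p of 0.157, 0.202 and 0.0948. The calls of *Rsad2*, *Isg15* and *Ifi27l2a* were also lost without the 1 dpi library (0.0591, 0.0829 and 0.0642), and that of *Isg15* without Uninjured (0.102). Of 9 mesenchymal markers 4 were lower in conventional CD4 T cells (*Fn1*, *Col3a1*, *Prrx1* and *Sparc*), which became log2 fold changes of 0.078, 0.30, 0.35 and 0.26 without the cells over 1% mesenchymal UMIs, none of them past the test. These calls were also lost without single libraries, with an edgeR adjusted p of up to 0.114, 0.0792, 0.21 and 0.0982.

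**Figure D5:**
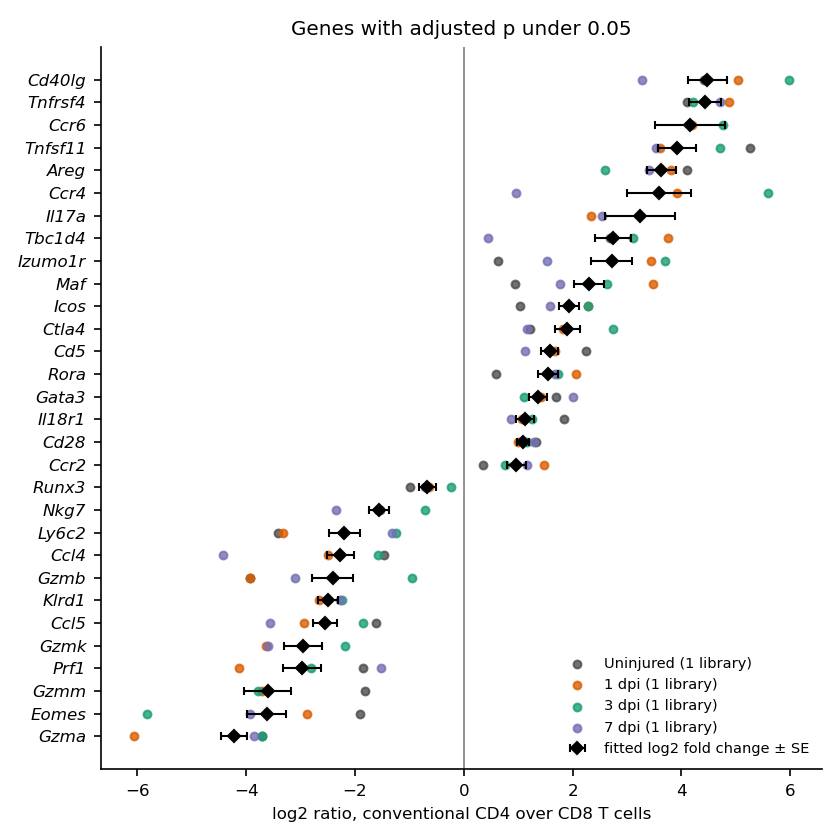
Log2 ratio of conventional CD4 over CD8 T cells for selected genes, with 1 coloured point per library and a black diamond for the fitted log2 fold change ± SE. A library in which either cell type had 0 UMIs of a gene has no point, and *Cd40lg* lies to the right and the granzymes lie to the left in every library drawn.

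Among the remaining genes with the largest fold changes were several that rest on few cells. *Iglc1* (98.7% of its UMIs in 1 cell), *Ccl1* (at least 23.2-fold higher) and *Mzb1*, a plasma cell gene with 85.2% of its UMIs in 1 cell, were higher, as were *Gm14718*, *B4galnt4*, *Ccr6* and *St8sia6*, the last a sialyltransferase (4.04 ± 0.53). Without the 7 dpi library *Iglc1* had an edgeR adjusted p of 0.114, and without Uninjured *Mzb1* had 0.0665. *Bend4*, *Krtdap*, *Mgl2*, *Gm44175* and *Clec10a* had 0 UMIs in conventional CD4 T cells and were at least 15.7-, 8.76-, 7.92-, 5.52- and 5.16-fold lower. *Adgrg5* (-5.28 ± 0.65), an adhesion receptor, and the NK receptor genes *Klre1* (-5.06 ± 0.54) and *Klra7* (-3.87 ± 0.67) were lower together with *Itgax* (-4.24 ± 0.72). Single libraries decided further calls here, since without Uninjured *Mgl2* had an edgeR adjusted p of 0.0918 and *Clec10a* 0.0943, and without the 1 or 3 dpi library *Gm44175* had 0.199 and 0.12, *Clec10a* 0.117 and 0.111, and *Itgax* 0.0721 and 0.0563. With DESeq2 in place of edgeR the calls of *Iglc1*, *Ccl1*, *Mzb1*, *Krtdap*, *Mgl2*, *Gm44175*, *Clec10a* and *Itgax* were lost. Those of *Krtdap* and *Clec10a* were also lost without the cells of the highest Scrublet scores.

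Cells that met the same rule but held *Foxp3*, the factor of regulatory T cells, numbered 2, 19, 10 and 6, with 239521 UMIs. Against these 37 cells, 49 of 8788 genes were higher (0.558%) and 16 lower (0.182%) in conventional CD4 T cells by edgeR's quasi-likelihood test. *Il2ra* (CD25), the high affinity chain of the interleukin 2 receptor, measured 10.9, 5.11, 22.3 and 34.7 CPM against 743, 76.9, 215 and 440.1 CPM, a log2 fold change of -3.48 ± 0.55 with an edgeR adjusted p of 8.9e-07. *Ikzf2* measured 10.9, 209, 85.8 and 101 against 1040, 1586, 952 and 597 CPM (-3.04 ± 0.50, edgeR adjusted p = 2.12e-06), so its level at 1 dpi in conventional CD4 T cells was well under that of cells with *Foxp3*. *Tnfrsf9* (4-1BB) had a log2 fold change of -3.79 ± 0.58 (edgeR adjusted p = 3.71e-07). *Tnfrsf18* (-2.15 ± 0.47), *Ctla4* (-2.02 ± 0.51), *Itgae* (-3.43 ± 0.69) and *Klrg1* (-2.41 ± 0.56) were lower, as was *Il10* (-2.66 ± 0.69), of whose 40 UMIs in the cells with *Foxp3* 36 lay in 1 cell, and 7 of 14 genes associated with regulatory T cells passed in this direction and 0 in the other. This count was 2 (*Ikzf2* and *Il2ra*) without the 1 dpi library, 3 without 7 dpi, 6 without 3 dpi and 7 without Uninjured, and 1 without cells holding a UMI of 5 genes of other cell types. *Tnfrsf4*, one of the 7, had an edgeR adjusted p of 0.132 without 1 dpi and 0.543 without 7 dpi. The calls of *Tnfrsf18* and *Ctla4* were lost without the 1 dpi library (edgeR adjusted p = 0.0816 and 0.458) and without the 7 dpi library (0.0566 and 0.561). That of *Klrg1* was lost without the 1, 3 or 7 dpi library (0.0915, 0.194 and 0.0991) and that of *Il10* without Uninjured or 7 dpi (0.0586 and 0.076). The others with the largest fold changes in this direction were *Cxcl3*, *Cxcl2*, *Neb* and *Ccrl2*. Single cells with *Foxp3* held 13 of 18 UMIs of *Cxcl3*, 106 of 165 of *Cxcl2* and 15 of 25 of *Ccrl2*. Of these genes, *Cxcl2* had an edgeR adjusted p of 0.134 without 7 dpi and *Ccrl2* of 0.0586 without Uninjured and 0.913 without 1 dpi.

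Higher than in cells with *Foxp3* when all 4 libraries were fitted were genes of the Th1 programme and of naive cells. *Ifng* measured 119, 226, 614 and 133 CPM against 0, 76.9, 30.7 and 0 CPM, a log2 fold change of 3.24 ± 0.65 with an edgeR adjusted p of 0.000446, which became 0.103 without the 3 dpi and 0.0746 without the 7 dpi library. *Ccl5* (3.15 ± 0.56, edgeR adjusted p = 3.65e-05) kept its call without each library in turn. *Ccr7* measured 402, 263, 123 and 113 against 297, 67.3, 0 and 0 CPM (2.89 ± 0.64, edgeR adjusted p = 0.00279), and *Tcf7* 337, 493, 216 and 127 against 148.5, 183, 30.7 and 0 CPM (2.51 ± 0.59, edgeR adjusted p = 0.00611). Both calls were lost without the 1, 3 or 7 dpi library, with edgeR adjusted p between 0.0807 and 0.173 for *Ccr7* and between 0.0818 and 0.296 for *Tcf7*. By list, 6 of 15 Th1 genes and 4 of 16 naive and central memory genes (*Ccr7*, *Tcf7*, *Satb1* and *Klf2*) were higher and 0 lower. The naive count was 0 without the 1, 3 or 7 dpi library and 4 without Uninjured. The Th1 count was 3 without 1 dpi, where *Tbx21*, *Tnf* and *Nkg7* were lost, 2 without 3 dpi, 2 without 7 dpi and 5 without Uninjured. *Tbx21* had 0 UMIs in the cells with *Foxp3* and was at least 3.77-fold higher, and *Pde3b*, a cyclic nucleotide phosphodiesterase, at least 3.98-fold. The call of *Tbx21* was lost in 8 of 13 alternatives, among them each left-out library (edgeR adjusted p of 0.0627 to 0.525), and that of *Pde3b* without 1, 3 or 7 dpi (0.121 to 0.515). The other genes of the largest fold changes in this direction, each with 0 UMIs in the 37 cells, were *Iglc1*, *Jchain*, *Rgs5*, *Ibsp*, *Acan*, *Col4a2*, *Fabp4* and *Tnmd*, genes of plasma, stromal and cartilage cells. A single conventional CD4 T cell held 1288 of 1305 UMIs of *Iglc1*, 140 of 141 of *Jchain*, 59 of 73 of *Tnmd*, 79 of 103 of *Fabp4* and 117 of 160 of *Rgs5*, and all UMIs of *Ibsp* and *Acan* came from 7 dpi, so these 7 calls rest largely on 1 cell or 1 library. *Col4a2*, a basement membrane collagen, had 51, 53, 47 and 27 UMIs in the 4 libraries. The *Col4a2* call was lost without the cells over 1% mesenchymal UMIs (edgeR adjusted p = 0.436) and without the cells of the highest Scrublet scores. Except for *Iglc1* these calls were lost without the 1 dpi library, with an edgeR adjusted p of 0.0582 to 0.19. *Icos* (-0.36 ± 0.50), *Cd28* (1.11 ± 0.49) and *Cd40lg* (2.18 ± 0.78, edgeR adjusted p = 0.295) did not pass, and 37 cells limit what could be resolved.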

How the data were processed

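Reads were processed by the authors in Cell Ranger 5.0.0, whose aligner is STAR. The deposited tables hold whole-number UMI counts without scaling. The methods place a down-sampling of reads, to even out the libraries, before the count matrix. The submitters' processing notes name mm10 and Seurat 3.1.1. Of 32285 gene identifiers, 99.6% matched GENCODE M21.

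Members and gene lists were chosen with earlier results of these data known. Counts were summed over the cells of a rule per library. Between libraries no test was run. CPM have exact Poisson intervals, shares of cells Clopper-Pearson intervals, and ratios conditional binomial intervals, all at 95%, with 0 UMIs set to a floor of 3 over the group. These intervals cover counting error only. Genes at least 2-fold apart were counted among those with at least 20 UMIs in a pair. Named outside the lists were the 6 genes with the largest ratio per direction (at least 20 UMIs in the higher and 3 in the lower library, in at least 10% of the cells of the higher library and not below the level over all its cells, without receptor and immunoglobulin segments), the 10 with the largest fold change per direction among those past each test with 1 sign in every library with at least 3 UMIs, and the genes leading over all other cells. For CD8 T cells and cells with *Foxp3*, chosen as the conventional CD4 T cells were but with a CD8 gene in place of *Cd4*, or with at least 1 UMI of *Foxp3* beside *Cd4*, edgeR 4.0.16 in R 4.3.3 was fitted to 8 library sums with TMM and the library as a block, leaving out the genes of the rules. The libraries are different time points, so replicates do not exist and the p-values measure agreement between time points. The scripts were tested on simulated data. A few genes that the naming rule or the lists hold are not reported here. Doublets were not removed, and Scrublet in scanpy 1.11.5 served as an alternative, with DESeq2 1.42.0, other filters and leaving out each library. Other software was matplotlib 3.10.9, pandas 2.3.3, scipy 1.17.1 and numpy 2.4.6 under Python 3.11.15.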

Additional observations from a re-analysis of the deposited data

How the results depend on the processing

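The number of cells rests on depth. With each cell thinned to 1000 UMIs before the rule was applied, 13, 56, 63 and 48 cells remained, and without cells holding a UMI of *Cd79a*, *Lyz2*, *S100a8*, *Siglech* or *Col1a1* 36, 82, 85 and 30. As a share of cells with a CD3 gene, thinning gave 3.41% in Uninjured, 9.03% at 1 dpi, 6.73% at 3 dpi and 4.29% at 7 dpi. With at least 2 CD3 UMIs the share was 19.1%, 13.3% and 8.59% at 1, 3 and 7 dpi, without the cells holding other markers 21.5% at 1 dpi and 13.3% at 7 dpi, and without the cells rich in mesenchymal UMIs, a removal chosen after seeing the data, 10.4% at 7 dpi.

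Counts of genes higher and lower at 1 dpi against Uninjured, 3 against 1 dpi and 7 against 3 dpi were 741 and 183, 239 and 112, and 211 and 528 with a minimum of 40 UMIs. They were 557 and 158, 188 and 45, and 173 and 351 past 3-fold, and 378 and 84, 123 and 114, and 121 and 333 after thinning. Without cells holding other markers they were 862 and 120 at 1 dpi, 155 higher at 3 dpi, and 83 and 450 at 7 dpi. Without the cells rich in mesenchymal UMIs 145 were lower at 1 dpi, 270 higher at 3 dpi and 115 higher at 7 dpi. Scrublet gave 235 lower at 1 dpi, and at least 2 CD3 UMIs 327 higher at 3 dpi.

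Against CD8 T cells, 95 genes were higher and 74 lower with DESeq2, 276 and 446 without a filter, 3 and 3 without the library block, and 138 lower with Scrublet. Without TMM 61.9% of calls were higher, against 43.8% with it. Leaving out a library gave 88 to 179 higher and 118 to 180 lower. Against cells with *Foxp3* the counts were 12 and 10 with DESeq2, 27 lower without TMM, 0 and 0 without the block (596 at an unadjusted p under 0.05), 3 and 7 without cells holding other markers, and 6 to 32 higher and 5 to 13 lower without a library.

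Of the 404 genes called against CD8 T cells, 32 changed direction without the cells rich in mesenchymal UMIs, 15 without cells holding other markers, 6 with DESeq2 and 1 with cells within 2 SD of log10 UMIs and genes. Of the 65 called against cells with *Foxp3*, 6 did with DESeq2 and 2 without cells holding other markers. Among the named values these changed direction. Without the cells rich in mesenchymal UMIs, the log2 ratio of the mesenchymal sum became 0.22 at 1 dpi against Uninjured and -0.10 at 3 against 1 dpi, that of *Rgs16* -0.59 at 7 against 3 dpi, and the log2 fold change against CD8 T cells 0.078 for *Fn1*, 0.30 for *Col3a1*, 0.35 for *Prrx1* and 0.26 for *Sparc*. *Fn1* was 0.16 without cells holding other markers, and *Pet100* -0.16 at 7 against 3 dpi after thinning. Where no value above shows a cause, the cause was not tested. No paired analysis was possible because each time point has 1 library, whereas both comparisons of cell types paired the cells of a library through the block. Depth limits what was resolved at 7 dpi.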
